A study of Mus musculus with 2 samples.

Results

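The genes described here make ribosomes or transcribe ribosomal RNA (rRNA). A list of 50 genes was drawn up from knowledge of the pathway, with earlier results of these data known. Their transcripts were found by symbol and Ensembl identifier. A summed value was obtained for 48 of the 50 members, out of 28013 genes with such a sum. Utp3 and Noc2l gave no sum and were left out. RNA polymerase I transcribes the rRNA precursor in the nucleolus. There, small nucleolar ribonucleoproteins (snoRNPs) modify and help to cut it, and assembly factors build the small and large subunits around it and leave before export. Haematopoietic stem cells (HSCs) renew all blood lineages. Those of adults are known to be mostly quiescent with low protein synthesis, whereas those of the fetal liver are known to cycle and expand.

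The study sequenced polyadenylated RNA in bulk from HSCs of adult bone marrow and, per the labels' protocol, of fetal liver. The labels used here list adult samples only: 2 samples (replicates 1 and 2) of B6129SF1 mice aged 6 to 8 weeks, with no treatment and no genetic change named. The protocol gives E14.5 (days of embryonic development) for the fetal liver, and the FL columns were read as fetal liver HSCs from that text and their header alone. The sources used here do not state its strain or the number of animals in a library. Both groups appear as columns of FPKM (fragments scaled by transcript length and by the total of mapped fragments), headed BM for bone marrow and FL for fetal liver. Each column holds the authors' 1 value per feature for a whole group, so the values have no SD, no n and no test, and the depth behind them is unknown. "Lower" and "higher" compare columns only.

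A mismatch between the tables has to be stated first. For most genes the BM column of the gene table carries the numbers that the transcript table carries under FL. The members behaved in the same way. The typical ratio of the gene table's BM value to the summed FL value was 1.05 over 11077 genes that reached 1 FPKM on each side, and 40 of 48 members (83.3%) lay within 10% of it, as did 78.9% of all these genes. Against the BM sums, 8 of 48 members lay within 10% of a constant ratio. The match shows that the same values carry opposite headers, not which header is right, and this could not be settled. The headers of the transcript table were followed here, with transcripts summed per gene, so every direction between BM and FL below depends on them. The gene table's BM column serves only as a check of the size of the FL sums, and no second table checks the BM sums.

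HSC markers were found in both columns: all 10 genes on the list were at 12.6 FPKM or more in BM and at 6.62 FPKM or more in FL. They were not equal, with 8 of 10 above the median gene in BM and sums of 941 FPKM in BM and 603 FPKM in FL. At least 2-fold higher in BM were 3 of 10 (30%), against 13.3% of all genes that reached 1 FPKM in BM or FL. Markers of other cells differed too. Over every listed gene with a value, BM was below FL for 11 of 12 erythroid markers, 11 of 12 neutrophil and monocyte markers, 9 of 10 macrophage markers and 8 of 8 hepatocyte markers. Their summed levels were 119, 208, 4.997 and 13.3 FPKM in BM against 882, 632, 240 and 41.6 FPKM in FL. The erythroid FL sum is uncertain, since the gene table's BM column gave 449 FPKM for the same 12 genes. Globin genes differed most there: Hba-a2 was at 185 FPKM in the FL sum but at 10.1 FPKM in the gene table. In BM 7 of the macrophage and 4 of the hepatocyte markers were under 1 FPKM while above it in FL. In BM the erythroid gene Alas2 and the macrophage gene Timd4, named here because of it, were listed at 0. Megakaryocyte markers summed to 925 FPKM in BM and 213 FPKM in FL. Proliferation genes were at least 2-fold lower in BM for 9 of 20 (45%), against 8.82% of all genes that reached 1 FPKM in BM or FL. They summed to 993 FPKM in BM and 1786 FPKM in FL. The FL sum may be too low, since Pcna was at 13.9 FPKM in it but at 447 FPKM in the gene table's BM column. What these cells and the cycling state contributed to the values of the ribosome biogenesis genes was not tested, and in bulk RNA fewer cells of a type and less RNA per cell cannot be told apart.

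Ribosome biogenesis genes were mostly somewhat lower in BM than in FL by the transcript table's headers, by less than 2-fold for all but 3 genes. By the gene table's own headers most were higher in BM, as given further on. Their median level was 45.2 FPKM in BM and 69.9 FPKM in FL, and all 48 together took 0.693% of all FPKM in BM and 0.899% in FL. Each gene's difference is given as a relative log2 ratio, log2((BM + 0.1)/(FL + 0.1)) centred on the median gene among those that reach 1 FPKM on both sides (a shift of 0.01). A gene counted as expressed when BM or FL reached 1 FPKM, which held for all 48 members. The median relative ratio of the members was -0.47 (quartiles -0.79 and -0.22), against 0.02 for all 12221 expressed genes. A ratio under 0 was found for 44 of 48 members (91.7%), against 49.1% of all expressed genes. With upper-quartile scaling in place of centring, which moves the median gene by 0.12, 38 members stayed under 0.

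Large differences were few. At least 2-fold lower in BM were 3 of 48 members (6.25%), which is near the background of 8.82% of all expressed genes. At a threshold of 1.5-fold, 20 of 48 (41.7%) were lower in BM, against 19.1% of all expressed genes. No member was at least 2-fold or 1.5-fold higher in BM, whereas 13.3% and 23.6% of all expressed genes were. The members are abundant: their median rank among detected genes was at percentile 82.7 in BM and 87.5 in FL. Among 7001 abundant genes (BM and FL averaging at least 10 FPKM), which include every member, the median ratio was -0.10, 57.7% were under 0, and 18.5% fell short of FL by 1.5-fold or more.

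**Figure D1:**
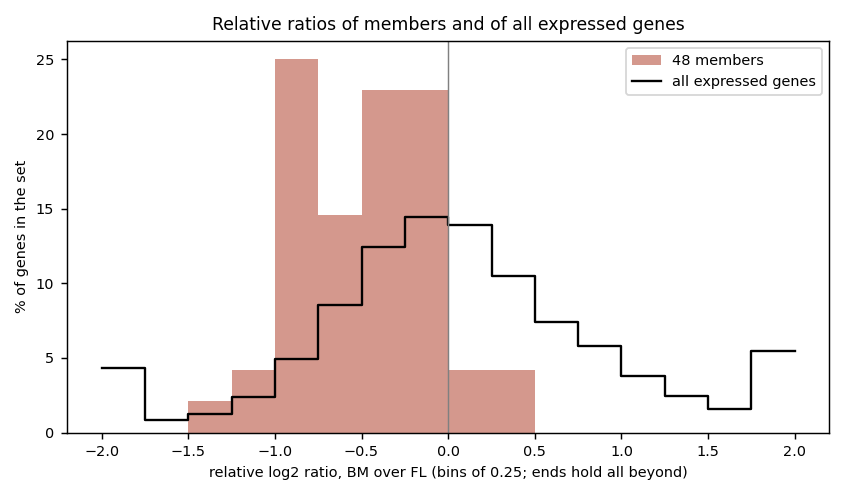
Share of genes in each bin of the relative log2 ratio (BM over FL, transcript table), as bars for the 48 members and as a line for 12221 expressed genes; the first and last bins hold all values beyond them. The bin from -1 to -0.75 holds 25% of the members and 4.93% of all expressed genes, and no member lies above 0.5.

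The order of levels among the members was much the same in both columns. Across the 48 genes, which are not independent replicates and come from the same 2 columns, log2 levels in BM and FL correlated with r = 0.962 (Spearman's rho 0.947), against r = 0.914 across 10877 genes that reached 1 FPKM in BM and in FL. The highest member was 94.9 times the lowest in BM and 109 times in FL. Npm1 was the highest in both; Utp20 was the lowest in BM and Noc3l in FL.

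**Figure D2:**
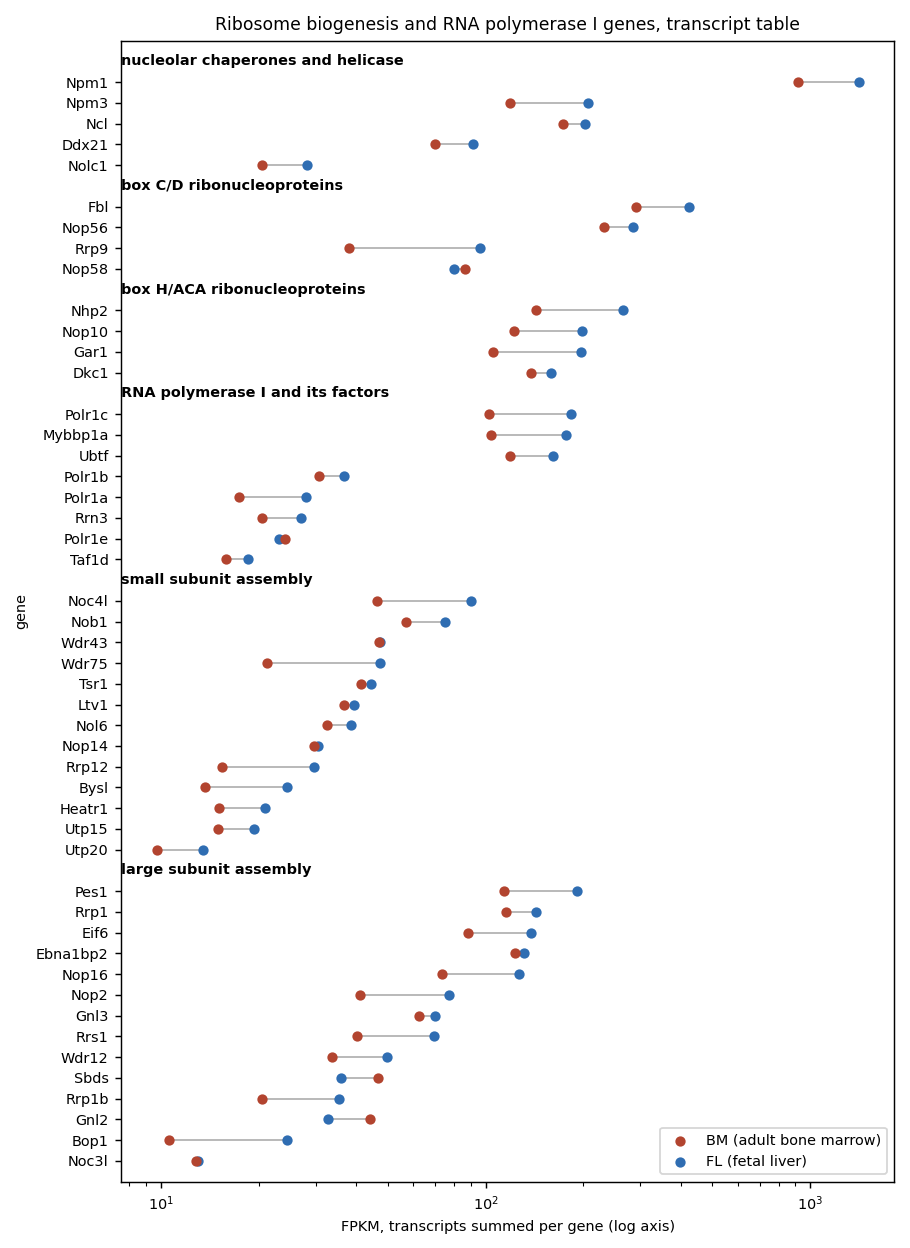
FPKM per gene (log axis) in the BM and FL columns of the transcript table for 48 members, grouped by role and ordered by FL. The BM point lies left of the FL point for all genes except Nop58, Polr1e, Sbds and Gnl2.

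Promoters are shown for 4 genes. Rrp9 was taken for having the lowest ratio. Nop2 of the large subunit and Polr1c and Rrn3 of RNA polymerase I were chosen after the motif search because they hold a motif. Whether a motif goes with the ratio of a gene was not tested. RefSeq promoters were at hand for 41 of the 50 members. The sequences are RefSeq's for build GRCm38.p6 and run up to the base before the start, except that of Rrp9, which stops at position -51. Capitals mark CACGTG, the E-box that Myc and Max and other factors can bind, and CCGGAAG or its reverse complement, a core that ETS factors can bind. Rrp9 lies at chr9:106477059-106477258 (plus strand), Nop2 at chr6:125131633-125131882 (plus), Polr1c at chr17:46248046-46248295 (minus) and Rrn3 at chr16:13780449-13780698 (plus).
Rrp9: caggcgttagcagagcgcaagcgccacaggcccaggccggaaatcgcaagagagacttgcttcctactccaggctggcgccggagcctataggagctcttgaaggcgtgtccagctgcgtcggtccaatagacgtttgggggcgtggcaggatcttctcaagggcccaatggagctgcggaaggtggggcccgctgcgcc
Nop2: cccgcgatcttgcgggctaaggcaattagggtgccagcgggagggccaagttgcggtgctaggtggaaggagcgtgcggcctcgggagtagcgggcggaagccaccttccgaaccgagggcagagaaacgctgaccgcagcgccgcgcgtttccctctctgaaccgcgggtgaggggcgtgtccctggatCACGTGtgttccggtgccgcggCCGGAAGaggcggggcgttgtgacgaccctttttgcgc
Polr1c: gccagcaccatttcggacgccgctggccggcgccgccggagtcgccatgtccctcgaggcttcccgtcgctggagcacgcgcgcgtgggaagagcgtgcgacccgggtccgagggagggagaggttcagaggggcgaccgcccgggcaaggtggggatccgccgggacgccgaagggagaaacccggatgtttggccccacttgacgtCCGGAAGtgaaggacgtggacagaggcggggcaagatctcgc
Rrn3: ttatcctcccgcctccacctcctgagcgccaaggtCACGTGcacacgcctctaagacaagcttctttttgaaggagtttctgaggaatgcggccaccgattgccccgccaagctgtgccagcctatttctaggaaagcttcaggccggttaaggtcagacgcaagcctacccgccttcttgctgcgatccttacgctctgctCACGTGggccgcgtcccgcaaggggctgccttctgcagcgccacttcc
The Nop2 sequence holds an E-box at position -60 and the ETS core at -38, counted from the start to the first base of the motif. Rrn3 holds E-boxes at -215 and -48, Polr1c the ETS core at -42, and the Rrp9 stretch neither motif. Both strands were searched in windows of 250 bases before to 50 after the start, and the E-box and the ETS core cannot overlap. Of 50 windows for these 41 members, 8 (16%) held the E-box, against 10.1% of 11851 windows of expressed genes and 7.15% of 32851 windows in all. The ETS core was in 15 of 50 (30%), against 17.96% of windows of expressed genes and 8.86% in all. The genes with an E-box were Ltv1, Mybbp1a, Nop2, Pes1, Rrn3, Tsr1, Utp20 and Wdr43. A motif is a match of letters, not a bound site.

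The 5 genes of nucleolar chaperones and a helicase came out lower in BM by up to 1.75-fold. Npm1, nucleophosmin, a chaperone of histones and ribosomal proteins, was at 920 FPKM in BM against 1417 FPKM in FL. Near-identical processed copies of Npm1 exist in the genome, so its value may include or lose shared reads. Npm3, of the same family, was at 119 FPKM in BM and 207 FPKM in FL. Ncl, nucleolin, which binds the rRNA precursor, stood at 174 FPKM in BM and 202 FPKM in FL. Ddx21, an RNA helicase of the nucleolus, was at 70.0 FPKM in BM and 91.6 FPKM in FL. Nolc1, a chaperone of snoRNPs, was at 20.5 FPKM in BM and 28.3 FPKM in FL, but the gene table's BM column gave it 147 FPKM, the furthest from the FL sum among the 8 members that did not match. The summed FL value of Nolc1 is thus far below the gene-level one. All 5 genes had a ratio under 0, from -0.81 for Npm3 to -0.23 for Ncl.

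The box C/D snoRNPs guide methylation of rRNA, and the genes of their proteins did not have like ratios. Fbl, fibrillarin, the methyltransferase, was at 290 FPKM in BM and 423 FPKM in FL. Nop56 and Nop58 are the paired core proteins of this particle. Nop56 was at 232 FPKM in BM against 286 FPKM in FL, a ratio of -0.31, whereas Nop58 was at 86.7 FPKM in BM against 80.1 FPKM in FL, a ratio of 0.11. Rrp9, a protein of the U3 particle that is needed for early cuts of the precursor, had the lowest ratio of all members, -1.35: 37.9 FPKM in BM against 96.2 FPKM in FL, 2.55-fold lower. The check of its FL value was close, at 105 FPKM in the gene table. Its protein-coding transcript alone was at 29.8 FPKM in BM and 65.3 FPKM in FL, with a ratio of -1.13.

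The box H/ACA snoRNPs, which convert uridines of rRNA to pseudouridine and also stabilise telomerase RNA, had the lowest median of the 6 role groups (-0.80). The sums for the genes of their 4 core proteins were alike: the highest was 1.35 times the lowest in BM and 1.67 times in FL. Coding transcripts held 42.7% of the Gar1 sum in BM and 51.4% in FL. For Nhp2 they held 98.3% and 97.9%, so coding levels were less alike than the sums. Nhp2 was at 143 FPKM in BM and 266 FPKM in FL. Nop10 was at 122 FPKM in BM and 199 FPKM in FL. Gar1 was at 105 FPKM in BM and 197 FPKM in FL, with 344 FPKM in the gene table check, 66.5% above what the FL sum predicts, and a retained-intron transcript held 57.0% of its sum in BM and 48.4% in FL. These 3 genes had ratios of -0.90, -0.70 and -0.91. Dkc1, dyskerin, the pseudouridine synthase itself, was nearer to the median gene, at 138 FPKM in BM and 160 FPKM in FL (-0.22). By the sums, it had the lowest level of the 4 in FL and the second highest in BM.

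Among RNA polymerase I genes, subunits differed from each other more than the columns did. Polr1a and Polr1b encode the catalytic subunits. Polr1a was at 17.4 FPKM in BM against 28.0 FPKM in FL, a ratio of -0.69. Polr1b was at 30.8 FPKM in BM against 36.6 FPKM in FL, a ratio of -0.25. Polr1e, a subunit that helps initiation, was at 24.1 FPKM in BM and 23.1 FPKM in FL, a ratio of 0.06. Polr1c, a subunit shared with RNA polymerase III, stood far above them, at 103 FPKM in BM and 183 FPKM in FL. Of its sum, 83.7% in BM and 84.7% in FL came from Polr1c-206, a short transcript annotated as a target of nonsense-mediated decay, so its level may not be that of the coding mRNA. Protein-coding transcripts of Polr1c held 12.7% of its sum in BM and 14.6% in FL.

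The factors that recruit RNA polymerase I were lower in BM by less than 1.5-fold, apart from Mybbp1a. Ubtf, which binds the rRNA gene promoter and keeps rRNA genes open, was at 119 FPKM in BM against 161 FPKM in FL. Rrn3, which makes the polymerase competent to initiate, was at 20.5 FPKM in BM and 27.1 FPKM in FL. Taf1d, a subunit of the promoter selectivity factor, was at 15.9 FPKM in BM and 18.5 FPKM in FL, with 51.4 FPKM in the gene table check. Mybbp1a, a nucleolar regulator of rRNA synthesis, was at 104 FPKM in BM and 176 FPKM in FL, a ratio of -0.76. Over the 8 genes of this role the median was -0.42, and 7 of 8 had a ratio under 0. Of 9 further genes of the polymerase, its selectivity factor and other regulators of rRNA genes, 6 were under 0 (median -0.13). Polr1f was at 22.6 FPKM in BM and 14.1 FPKM in FL (0.67) and Polr1g at 11.7 FPKM in BM and 20.9 FPKM in FL (-0.84).

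All 13 small subunit genes with a sum had a ratio under 0, but by widely different amounts, and Ltv1, Tsr1, Nop14 and Wdr43 pass 0 with upper-quartile scaling. The early assembly factor gene Wdr75 was at 21.2 FPKM in BM and 47.3 FPKM in FL, a ratio of -1.16. Its gene table check gave 75.3 FPKM, well above the FL sum. Wdr43, which works beside Wdr75, was at 47.0 FPKM in BM and 47.3 FPKM in FL. Noc4l, a partner of Nop14, was at 46.3 FPKM in BM and 90.5 FPKM in FL, a ratio of -0.97. Nop14 itself was at 29.6 FPKM in BM and 30.4 FPKM in FL. The partner genes in these pairs thus had unlike ratios; without replicates, the difference has no test.

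Other early factors lay between. Heatr1, a large protein of an early subcomplex that is also needed for rRNA transcription, was at 15.1 FPKM in BM and 20.9 FPKM in FL (-0.47). Utp15, of the same subcomplex, was at 14.97 FPKM in BM and 19.4 FPKM in FL (-0.38). Utp20, a large scaffold protein, was at 9.70 FPKM in BM and 13.4 FPKM in FL (-0.47). Heatr1, Utp15 and Utp20 thus had like, modest differences, unlike Wdr75 (-1.16) and Wdr43 (-0.02) above. Nol6, another early factor, was at 32.6 FPKM in BM and 38.6 FPKM in FL (-0.25). Of late factors, Rrp12, which helps export, was at 15.4 FPKM in BM and 29.6 FPKM in FL (-0.94). Bysl, which stays on the small subunit precursor until late in the nucleus, was at 13.6 FPKM in BM and 24.4 FPKM in FL (-0.84). Nob1, the nuclease that makes the last cut of the small subunit rRNA, was at 57.1 FPKM in BM and 75.3 FPKM in FL (-0.41). Tsr1 and Ltv1, which sit on the late precursor until it reaches the cytoplasm, were near the median gene. Tsr1 was at 41.4 FPKM in BM and 44.2 FPKM in FL (-0.10), and Ltv1 at 36.7 FPKM in BM and 39.4 FPKM in FL (-0.11).

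Large subunit genes showed the widest range of ratios, from -1.20 for Bop1 to 0.42 for Gnl2. Pes1, Bop1 and Wdr12 form a complex that is required for processing of the large subunit rRNA. Pes1 was at 114 FPKM in BM and 191 FPKM in FL (-0.75). Wdr12 was at 33.6 FPKM in BM and 49.8 FPKM in FL (-0.57). Bop1 was at 10.6 FPKM in BM and 24.4 FPKM in FL, but its gene table check was 81.8 FPKM and its sum rests on 1 linked transcript. Of the 3 members past 2-fold, Rrp9 alone therefore had an FL sum that the gene table matched within 10%. Nop2, an rRNA methyltransferase gene whose promoter is printed above, was at 41.0 FPKM in BM and 77.0 FPKM in FL (-0.91).

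A group of large subunit genes, Rrs1, Nop16 and Rrp1b, lay close together at 1.73-fold to 1.74-fold lower in BM. Rrs1, which helps to bring 5S rRNA into the particle, was at 40.1 FPKM in BM and 69.6 FPKM in FL (-0.80). Nop16, a factor of the nucleolar large subunit precursor, was at 73.5 FPKM in BM and 127 FPKM in FL (-0.79). Rrp1b was at 20.4 FPKM in BM and 35.3 FPKM in FL (-0.79), and its relative Rrp1 stood higher but nearer to the median gene, with a ratio of -0.32. Ebna1bp2 and Noc3l, factors of the early large subunit precursor, had ratios of -0.10 and -0.03 that change sign with upper-quartile scaling. Ebna1bp2 was at 123 FPKM in BM and 131 FPKM in FL, and Noc3l at 12.8 FPKM in BM and 13.0 FPKM in FL. Gnl3, nucleostemin, a GTPase abundant in stem cells and dividing cells, was at 62.6 FPKM in BM and 70.1 FPKM in FL. Gnl2, a related GTPase for export of the large subunit, was at 44.2 FPKM in BM against 32.8 FPKM in FL and had the highest ratio of all members (0.42).

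The last step in the cytoplasm gave opposite directions for partner genes. Eif6 encodes the factor that keeps the large subunit from joining the small one too early, and Sbds encodes the protein that helps to release it. Eif6 was at 88.1 FPKM in BM and 138 FPKM in FL, a ratio of -0.66. Sbds was at 46.5 FPKM in BM and 35.8 FPKM in FL, a ratio of 0.37. Both FL sums lay within 10% of the typical ratio in the gene table check.

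**Figure D3:**
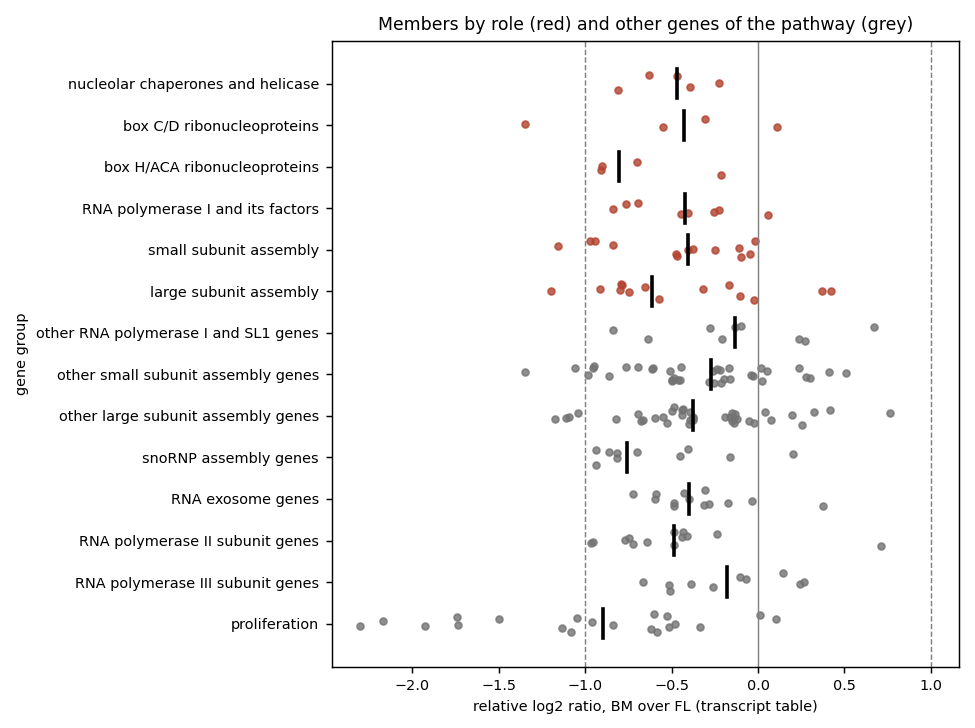
Relative log2 ratio (BM over FL, transcript table) of each expressed gene, by role for the members (red) and by list for other genes (grey); bars mark medians and dashed lines 2-fold. The medians of all groups lie below 0, from -0.90 for proliferation genes to -0.13 for the other RNA polymerase I genes.

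Other genes of ribosome assembly mostly lay on the same side of the median gene. Of 107 expressed genes in 5 further lists, 87 (81.3%) had a ratio under 0, with a median of -0.37. This share was 49.1% among all expressed genes and 57.7% among the abundant genes. At least 2-fold lower in BM were 6 (5.61%), fewer than the 8.82% of all expressed genes. None was 2-fold higher, against 13.3% of all expressed genes. The snoRNP assembly list, most but not all of whose products help to load the core proteins described above, had a median of -0.76 over 10 genes. Its member Snu13, itself a core protein of box C/D particles and also of the spliceosome, was at 94.3 FPKM in BM and 180 FPKM in FL. Large subunit genes outside the 50 had a median of -0.37 over 39 genes, and Mrto4 was at 49.5 FPKM in BM and 107 FPKM in FL. Small subunit genes had a median of -0.27 over 36, and Utp4 was at 27.9 FPKM in BM and 58.1 FPKM in FL. The RNA exosome, which trims rRNA precursors, had a median of -0.40 over 13 genes.

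Genes of the other RNA polymerases and of the Myc family had ratios mostly under 0 too. Subunits of RNA polymerase II, which makes mRNA, had a median of -0.48 with 12 of 13 under 0, much like the members. Some of these subunits are shared with RNA polymerase I, so this list does not lie wholly outside the pathway. Among the shared ones are Polr2f (-0.97) and Polr2l (-0.96), the lowest of the list, and Polr2e (-0.24). Those of RNA polymerase III, which makes transfer RNA, had a median of -0.18 with 7 of 10 under 0. Myc, a known activator of ribosome biogenesis genes, was at 110 FPKM in BM and 124 FPKM in FL (-0.18). Its relative Mycn was at 85.3 FPKM in BM and 111 FPKM in FL (-0.39), and their partner Max at 61.7 FPKM in BM and 69.0 FPKM in FL (-0.17). Mycl was listed at 0 in BM and at 0.484 FPKM in FL, below the level taken as expressed.

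The gene table check matched most members. For 40 members the gene table's BM value was within 10% of 1.05 times the FL sum. It was higher for 7, by 33.5% for Polr1c, 34.9% for Rrp1, 52.1% for Wdr75 and 66.5% for Gar1, and by 165% for Taf1d, 220% for Bop1 and 396% for Nolc1. It was 11.9% lower for Fbl (-11.9%). Unlinked transcripts carried 10.9% of all FPKM in BM and 10.4% in FL; whether they account for these genes was not tested. Among the 40 matching members, 36 had a ratio under 0, 16 were at least 1.5-fold lower and 1 at least 2-fold lower in BM, and the median was -0.42.

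**Figure D4:**
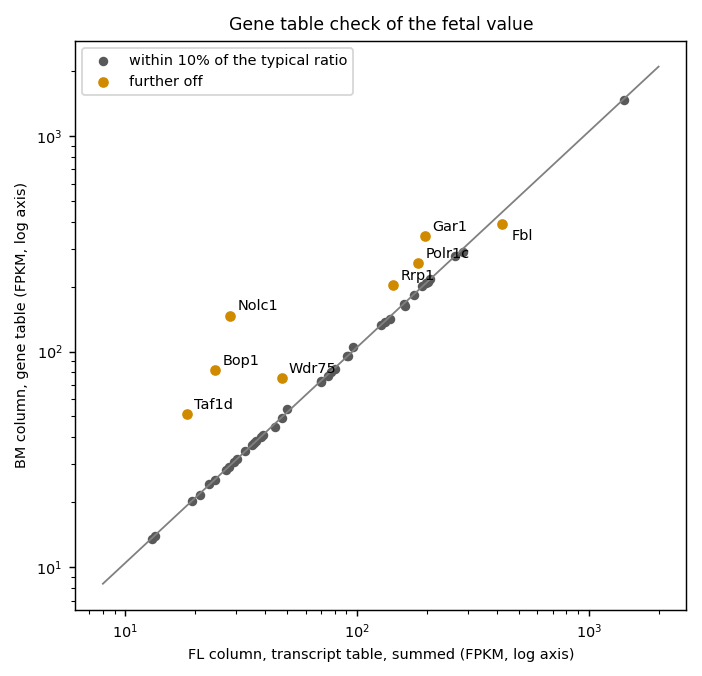
BM column of the gene table against the summed FL column of the transcript table for 48 members, on log axes in FPKM. The line is the typical ratio of 1.05; the 40 grey members lie within 10% of it, and 8 named members lie further off.

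The gene table's own columns, read by their headers, show these genes in another comparison. Its BM column holds the values that the transcript table heads FL, and the labels do not say what its FL column holds. By header, 21 of 49 members were at least 2-fold higher in BM than in FL, against 12.3% of the 13834 genes expressed in that table, and none was 2-fold lower, against 23.6%. The median relative ratio was 0.93, relative to a median gene shifted by 0.24. Dkc1 was the furthest apart, at 166 FPKM in BM and 36.4 FPKM in FL (1.94). Ltv1, at 41.1 FPKM in BM and 40.3 FPKM in FL, had the lowest ratio (-0.21). Utp3, which gave no transcript sum, was at 49.5 FPKM in BM and 40.1 FPKM in FL. All 8 endothelial and all 8 stromal markers were at least 2-fold lower in the same BM column, with median levels of 9.96 and 0.454 FPKM in BM against 242 and 42.4 FPKM in FL. Their part in the members' values was not tested. This comparison draws a second time on values already used as FL, so it is not independent of the one above.

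The transcripts behind the sums could be compared between BM and FL. The 48 members had 196 linked transcripts, with 1 each for 21 genes and several for 27. The transcript with the highest value was the same in BM and FL for 26 of these 27 genes (96.3%), against 89.1% of 4980 genes of several transcripts and at least 10 FPKM on average. The exception was Tsr1, where a retained-intron transcript, Tsr1-207, led in BM with 27.7% of the sum, and Tsr1-202, a target of nonsense-mediated decay, led in FL with 34.4%. A transcript not annotated as protein-coding led in both columns for Polr1c, Gar1, Pes1 and Ebna1bp2, so that coding transcripts held 40.3% of Pes1 in BM and 39.7% in FL, and 23.6% of Ebna1bp2 in BM and 27.0% in FL. The part of a gene's sum assigned to other transcripts in BM than in FL had a median of 7.18 percentage points for the members and 9.25 for all 4980 genes. It reached 20 points or more for 5 of 27 members (18.5%), against 17.8% of all.

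Taf1d, one of those 5, had 2 coding transcripts. In BM, Taf1d-202 was at 13.3 FPKM and Taf1d-201 at 2.55 FPKM, and in FL they were at 9.46 and 9.04 FPKM. The sums, which differ little, thus combine 2 transcripts with ratios of opposite sign (0.48 and -1.79). The FL sum of 18.5 FPKM was far below the 51.4 FPKM of the gene table check. The shares of Taf1d therefore cover its linked transcripts only. In Wdr12, which had the largest difference (34.4 points), Wdr12-203 was at 0.608 FPKM in BM and 8.25 FPKM in FL, and Wdr12-207 at 4.16 FPKM in BM and 15.8 FPKM in FL. The main transcript Wdr12-201 was at 13.6 FPKM in BM and 16.4 FPKM in FL. Nop56 had 74.9% of its FPKM in protein-coding transcripts in BM and 85.1% in FL. For Polr1e these shares were 84.6% in BM and 94.0% in FL. For Rrp1b the coding share was the higher in BM, at 65.3%, against 55.4% in FL. Values of single transcripts are model estimates from shared reads.

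**Figure D5:**
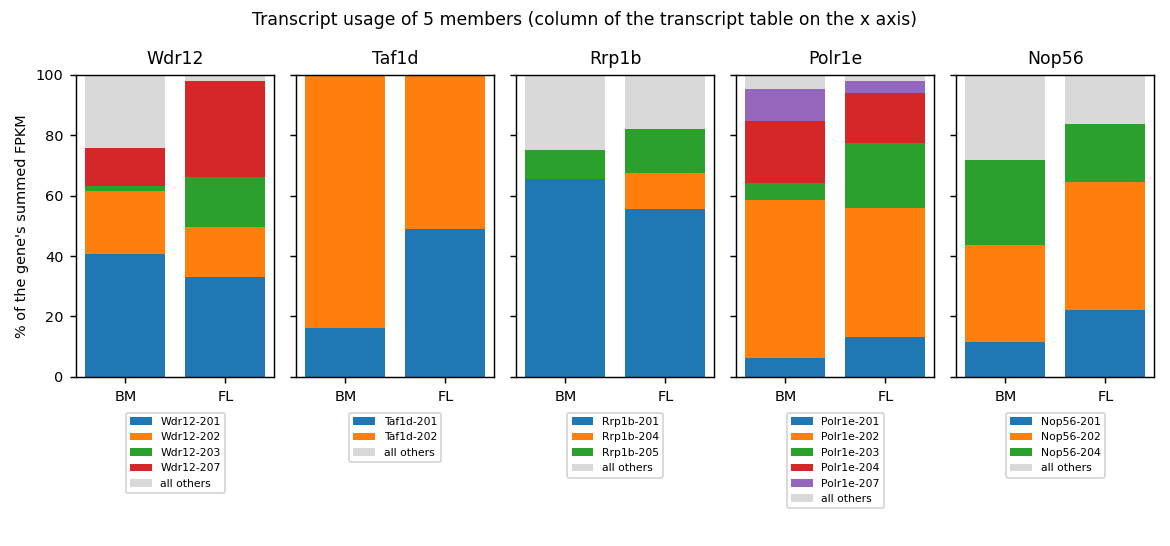
Percent of each gene's summed FPKM held by its transcripts in BM (left bar) and FL (right bar), for the 5 members that differ by 20 points or more; transcripts under 10% in both columns are pooled in light grey. Taf1d-202 holds 83.9% of the sum of linked Taf1d transcripts in BM and 51.1% in FL.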

How the data were processed

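The authors deposited FPKM values in a gene table and a transcript table, each with 1 column headed BM and 1 headed FL and no replicate columns. Per the submitters' processing notes, TopHat, Cufflinks, featureCounts, Subread, edgeR and the build mm9 were used, with roles, versions and gene models not stated. Depth is unknown, since FPKM does not keep it.

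Transcripts were linked to genes by identifier through GENCODE M21 (76512 of 87641 linked) and summed per gene. The linked annotation and RefSeq promoters are of a later build, so no coordinate of the files was used. Calculations used Python 3.11.15, numpy 2.4.6, pandas 2.3.3 and matplotlib 3.10.9, and the ratio was tested on simulated data. All 50 members, 18 gene lists, role groups and motifs were chosen with earlier results of these data known. Any member may be named; of other lists, the 2 genes of highest mean level, the 2 of lowest and the 2 of highest ratio, and all genes of lists of 5 or fewer. Alternatives covered pseudocounts (1 and 0.01), scaling, filters, transcript choice, the fetal column and the threshold.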

Additional observations from a re-analysis of the deposited data

How the results depend on the processing

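The median ratio of the members kept its sign under every alternative run, with -0.35 under upper-quartile scaling against -0.47. The count of members at least 2-fold lower in BM was 3. It was 5 with protein-coding transcripts only (Gar1 and Polr1c added; 8.53% of all genes expressed under that setting were this much lower), 7 with the gene table's BM column in place of FL (Gar1, Nolc1, Taf1d and Polr1c added; 13.1% of all), 1 among members within 10% in the check (an alternative added after seeing the data; 9.04% of all such genes), and 20 at 1.5-fold (19.1% of all). No member was 2-fold higher under any of these. The alternative with the gene table sets a gene-level value against a summed one. Ratios under 0 numbered 38 of 48 under upper-quartile scaling, 39 with the highest transcript only, 40 with the gene table's column and 43 with coding transcripts only. Of 472 single-gene ratios recomputed, 466 moved by less than 1.5-fold, 6 moved more, and none of those past 2-fold changed sign. Of the 6, 4 moved with the gene table's column and 2 with the highest transcript only. Pseudocounts and filters on low values could hardly move ratios at these levels, so the count of 466 says little about stability. No paired analysis was possible because the columns carry no replicate numbers, and leaving out a replicate was not possible for the same reason.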
